A study of Rattus norvegicus with 5 samples.

Results

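The comparison set the RNA of rat vascular smooth muscle cells held under hypoxia for 24 h against a control culture, 1 RNA-seq library each, which makes 2 of the 5 libraries of the series. The other 3 libraries came from cells kept under hypoxia for 24 h after a pretreatment with In-Cl (0.1 µM, an indazole compound), DPN (0.1 µM, an agonist that prefers estrogen receptor beta) or E2 (10 nM, estradiol), and served here only to check the direction of a difference. No group carries a genetic change in the labels; all cells were grown on coated plastic in DMEM/F12 medium, and the sources used here do not give the oxygen level, the vessel, the passage or whether the control received a vehicle. The authors' values are log2 of a read count adjusted for library size, plus 1, and the linear form is called the adjusted read count below. Of 17048 rows, 8872 had a mean adjusted read count of at least 100 over the 5 libraries, and keeping 1 row per symbol left 8814 genes. Just outside this limit lay Cd80 (mean 99.9) and Acvr1b (99.92), and just inside Zfp418 (100.03) and Rgs17 (100.06).

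Cells sense oxygen through prolyl hydroxylases, which use oxygen to mark the alpha subunits of hypoxia-inducible factor (HIF) for degradation. When oxygen is short the factor accumulates, binds a short DNA core in promoters and enhancers, and raises genes for sugar breakdown, for mitochondrial remodelling, for blood vessel growth and for the hydroxylases themselves. In the vessel wall, smooth muscle cells also adjust their growth, their matrix and their contractile state to low oxygen. Costly work such as making ribosomes and copying DNA is often held back.

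With 1 library per condition, differences have no check against replicates and carry no p-value, and each statement compares libraries rather than conditions. The adjusted read counts summed to 20663687 in the control and 22837695 under hypoxia, with the other 3 libraries between them. They stand for about 24700000 reads in the control, 22100000 under hypoxia and 20100000 in the shallowest library, the E2 one. Ribosomal RNA took 3.44% to 4.67% of them. The label was checked against marker genes: 9 of 10 smooth muscle markers exceeded an adjusted read count of 100 in each library, with sums of 290226 in the control and 339528 under hypoxia. Endothelial markers (10 genes) summed to 455.2 and 494.7, with Cdh5, Cldn5, Emcn and Kdr at 0. Most of that was Tek (244.2 and 369.7) and Flt1 (157.7 and 69.3), which differed in opposite directions. Leukocyte markers (10 genes) summed to 232.6 and 235.3, most of it Cd14 (184.6 and 157), with Cd3e, Itgam, Laptm5 and Tyrobp at 0. Epithelial markers (10 genes) summed to 223 and 567.6, nearly all of it Krt8, with Cldn7 and Elf3 at 0. Fibroblast markers summed to 230221 and 286576, most of it Col1a1, a collagen gene that smooth muscle cells also express, while Dpt was at 0. Of these 10 genes, 4 in the control and 5 under hypoxia exceeded an adjusted read count of 100. Lum (1214.2 and 590.8), Mfap5 (883.1 and 1071.7) and Scara5 (314 and 335.6) were among them. The marker check thus does not set smooth muscle cells apart from fibroblasts. Krt8, a keratin, differed by 1.34, and the part of other cells in the results was not tested. In a bulk sample, fewer cells of a type and less RNA per cell cannot be told apart.

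Large differences were mostly upward in the hypoxia library. At least 2-fold higher were 200 of 8814 genes (2.27%) and at least 2-fold lower 36 (0.408%). At the moderate limit of 1.5-fold the counts were 497 higher (5.64%) and 394 lower (4.47%). The filter averages 5 libraries, 4 of them hypoxic, so it keeps genes low in the control more readily than genes low under hypoxia. This favours higher genes in the counts. Filtering on the mean of control and hypoxia alone gave 187 higher and 40 lower at 2-fold, and 474 and 405 at 1.5-fold. Any amount above the control were 44.1% of genes and any amount below it 55.8%, with a median log2 difference of -0.04 and a middle 90% from -0.57 to 0.63. The split depended on scaling: of the genes past 1.5-fold 55.8% were higher as deposited and 27.8% once each library was scaled to the same sum, a step that moved the median of all kept genes by -0.14. Of the genes past 2-fold, 84.7% were higher as deposited and 65.7% on that scaling. At least 1.5-fold lower were 313 genes after median centring, 357 after quantile normalization and 893 on the same-sum scaling. The last of these raises the counts of lower genes at large, and so also in the lists below. For single genes, approximate reads gave a 95% counting interval of the log2 difference. It covers counting error only, had a median half-width of 0.15, and excluded 0 for each gene past 1.5-fold. With this filter and limit that outcome was nearly fixed in advance. The 4 hypoxic libraries share the 1 control, so their agreement is no replication: 491 of the 497 higher genes and 386 of the 394 lower genes kept their side of the control in all 4, beside 70.8% of all kept genes, and 334 and 175 passed 1.5-fold in all 4.

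**Figure D1:**
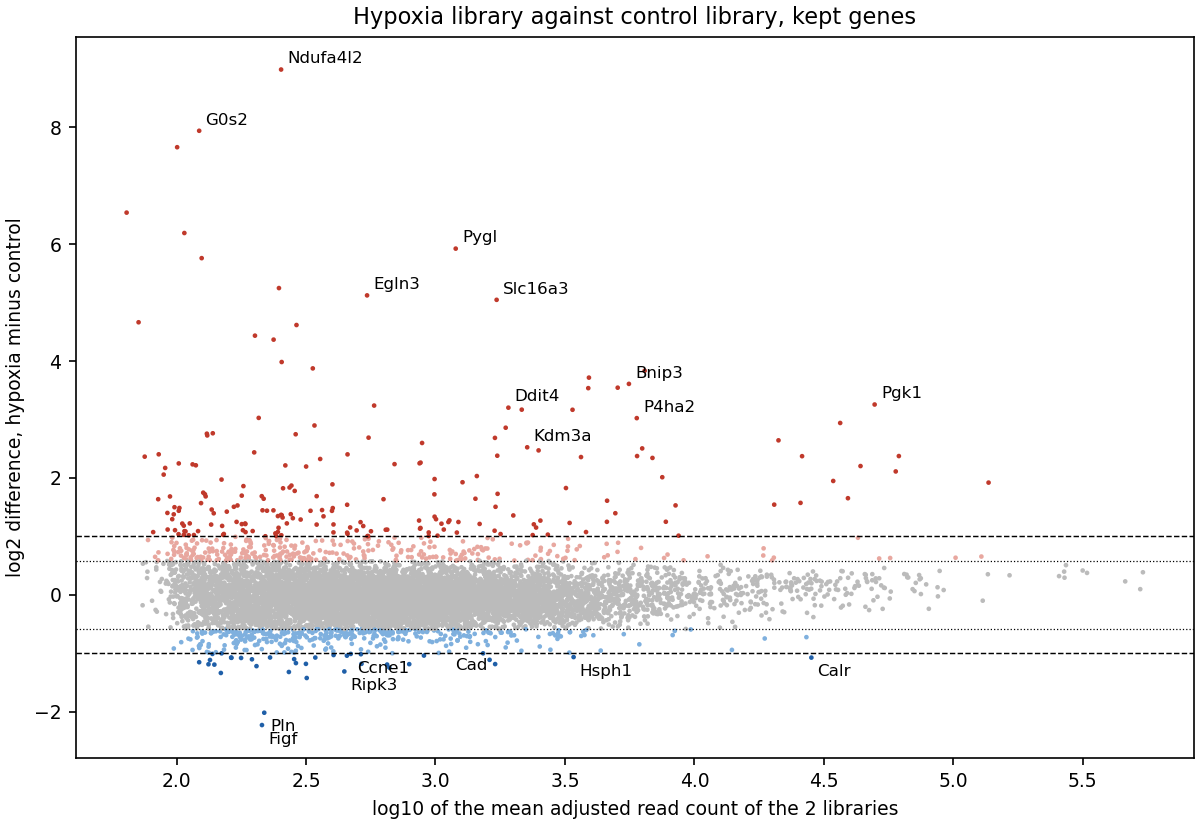
Difference in log2 value, hypoxia minus control (vertical axis), against the mean adjusted read count of the 2 libraries (horizontal axis, log10), 1 point per kept gene (8814). Dotted lines mark 1.5-fold and dashed lines 2-fold; 200 genes lie above the upper dashed line and 36 below the lower one, and the lower ones stay close to it except for Figf and Pln.

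The 5-letter core of the HIF binding site is shown first in promoters of genes from 5 of the groups described below. These are chosen examples that stood far above the control and hold the core ACGTG, and they do not stand for the high genes at large. Among other highest ranked genes, Mgarp, Aldoc, Fam162a and Eno2 also hold it before the start. G0s2, Lamb3, Ak4 and Vwa1 hold only GCGTG there, a related core. The windows are 60 bases each, written 5′ to 3′ in the direction of the gene, from RefSeq promoters of build GRCr8, which is not the build of the deposited values (rn6). Capitals mark the core ACGTG, or CACGTG where it reads the same on both strands.
Bnip3: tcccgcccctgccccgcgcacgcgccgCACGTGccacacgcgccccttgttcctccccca
P4ha2: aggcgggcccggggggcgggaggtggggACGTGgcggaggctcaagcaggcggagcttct
Ankrd37: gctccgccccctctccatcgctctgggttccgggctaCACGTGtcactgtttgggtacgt
Ddit4: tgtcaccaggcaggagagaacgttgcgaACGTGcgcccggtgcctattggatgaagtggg
Pygl: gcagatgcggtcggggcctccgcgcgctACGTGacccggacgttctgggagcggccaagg
These windows lie at chr1:203155029-203155088 on the minus strand (Bnip3), chr10:38743825-38743884 on the plus strand (P4ha2), chr16:53001447-53001506 on the plus strand (Ankrd37), chr20:28437144-28437203 on the minus strand (Ddit4) and chr6:94476402-94476461 on the minus strand (Pygl). They sit within the 250 bases before the gene's first listed start, and the core begins 98, 41, 22, 138 and 214 bases before that start, in the order above.

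ACGTG was searched on both strands from 250 bases before to 50 bases after the first listed start. It occurred in 37.5% of the genes at least 2-fold higher (54 of 144 with a promoter in the table), in 34.62% of the genes at least 1.5-fold lower (108 of 312), in 27.64% of the kept genes matched by symbol (6834 of 8814) and in 19.73% of all 27457 promoters. The related core GCGTG, which differs in its first letter and can overlap ACGTG in a promoter, occurred in 52.78% of the 2-fold higher genes, 52.88% of the lower genes and 52.74% of the kept genes. A match describes letters and is neither a bound site nor a cause. The share with ACGTG was thus above that of kept genes at large in the higher and in the lower genes alike, and the shares with GCGTG lay within 1 percentage point of each other.

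Among the genes of oxygen sensing, 1 HIF hydroxylase and 1 HIF target stood high in the hypoxia library. Egln3, a prolyl hydroxylase of HIF, had adjusted read counts of 29.4 in the control, 1059.1 under hypoxia, 1015.2 after In-Cl, 1032.3 after DPN and 1011 after E2. All 4 hypoxic libraries lay within 5% of each other and far above the control, and the difference was 34.87-fold (log2 5.12, interval 4.69 to 5.70). Ankrd37, an ankyrin repeat gene and known HIF target, followed at 3.98. The other kept hydroxylases of HIF differed little, with Egln2 at 0.13 (interval -0.02 to 0.29) and Hif1an at 0.12 (interval -0.23 to 0.47). Hif1a itself was lower, at 1644.1 in the control and 1346.4 under hypoxia (log2 -0.29, interval -0.39 to -0.19), and its partner Arnt differed by 0.06. Of 10 kept genes of oxygen sensing, 2 were at least 2-fold higher and 0 lower; the other members ranged from -0.29 (Hif1a) to 0.33 (Cited2, a competitor of HIF for its coactivator).

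The JmjC histone demethylases, which also use oxygen, leaned upward, with a median of 0.39 beside -0.04 for all kept genes. Kdm3a, which removes methyl groups from lysine 9 of histone H3, had 668.5 in the control, 3852.6 under hypoxia, 4812.9 after In-Cl, 4155.1 after DPN and 4266 after E2 (5.76-fold, log2 2.52, interval 2.42 to 2.64). Kdm4b, which also acts on lysine 9, was higher by 2.03 and Kdm5b, which acts on lysine 4, by 1.10. In each of these 3 genes the control was the lowest of the 5 libraries. Of 15 kept members 5 were at least 1.5-fold higher and 1 lower, with Kdm6b, which acts on lysine 27, at 0.98, Jmjd6 at 0.68, and Mina, a ribosomal oxygenase, at -0.67.

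Collagen hydroxylases, again oxygen consumers, formed a split list. P4ha2, an alpha subunit of collagen prolyl hydroxylase, had 1310.5 in the control, 10667 under hypoxia, 10696.6 after In-Cl, 10491 after DPN and 10253.7 after E2 (8.13-fold, log2 3.02, interval 2.95 to 3.10). The hypoxic libraries were almost level with each other at about 8 times the control. P4ha1, the other main alpha subunit, was higher by 1.95, P4hb, the shared beta subunit, by 0.98, Plod1, a lysyl hydroxylase, by 2.01, and Loxl2, a lysyl oxidase that crosslinks collagen, by 2.34. Plod2 (0.63) and Lox (0.80) completed the 7 of 17 genes past 1.5-fold. The other members ran from 0.27 for Plod3, a lysyl hydroxylase, down to -0.39 for Loxl1 and -0.43 for Loxl3, so the list's median was 0.07, and -0.08 when libraries were scaled to the same sum. The collagen chains that these enzymes modify differed less: 3 of 14 passed 1.5-fold (Col14a1 at 0.67, Col16a1 and Col27a1 at 0.62), or 0 on the same-sum scaling, and the list's median was 0.26, or 0.03 after quantile normalization.

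Mitochondrial genes gave the largest differences of all, and they were single isoforms and regulators rather than the bulk of the organelle. Ndufa4l2, a small protein that resembles the Ndufa4 subunit of cytochrome c oxidase, was listed at 0 in the control and at 506.8 under hypoxia, 441.9 after In-Cl, 551.9 after DPN and 485.4 after E2. Against a floor of 3 reads in the control that is at least 202.1-fold higher as a ratio of adjusted read counts, without the pseudocount; the counting interval of the difference begins below that, at 7.36 on the log2 scale. Its relative Ndufa4 was lower, at -0.39. Cox4i2, the low-oxygen form of cytochrome oxidase subunit 4, was 21.63-fold higher (16.8 in the control, 384.9 under hypoxia, log2 4.43), while the common form Cox4i1 differed by 0.12 and lay on both sides of the control among the hypoxic libraries.

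Further members of the mitochondrial list belonged to adenine nucleotide balance and the entry of pyruvate. Ak4, a mitochondrial adenylate kinase, was higher by 5.25. Pdk1, which switches off pyruvate dehydrogenase, had 451.3 in the control, 3282.5 under hypoxia, 3144.3 after In-Cl, 3181.6 after DPN and 3629.6 after E2 (7.26-fold, log2 2.86). Pdk3 was higher by 1.04 while Pdk2 was at -0.03. Of the phosphatases that reverse these kinases, Pdp2 was at -0.98 (interval -1.35 to -0.63) and Pdp1 at 0.29 (interval 0.11 to 0.47), so they stood on opposite sides of the control. Higd1a, a survival factor of the respiratory chain, was 11.61-fold higher and Fam162a, a HIF-responsive mitochondrial gene, 14.27-fold higher. In the file Fam162a stands beside Ccdc58 (1.12) and Wdr5b (1.44), which were also higher. Of the 16 kept members of this list 8 were at least 1.5-fold higher and 2 lower.

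Of the genes for the removal of mitochondria, 2 related receptors stood high. Bnip3, a receptor that hands mitochondria to autophagosomes, had 844.7 in the control, 10325 under hypoxia, 9815.5 after In-Cl, 10382.5 after DPN and 11544.2 after E2 (12.21-fold, log2 3.61, interval 3.52 to 3.71). Its relative Bnip3l was 3.06-fold higher (log2 1.61). None of the other 21 kept genes of mitophagy and autophagy passed 1.5-fold; they ranged from -0.23 (Optn, an adaptor) to 0.46 (Pink1, a kinase that tags damaged mitochondria), with Fundc1, another mitophagy receptor, at 0.14, and the list's median was 0.08, or -0.06 on the same-sum scaling.

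**Figure D2:**
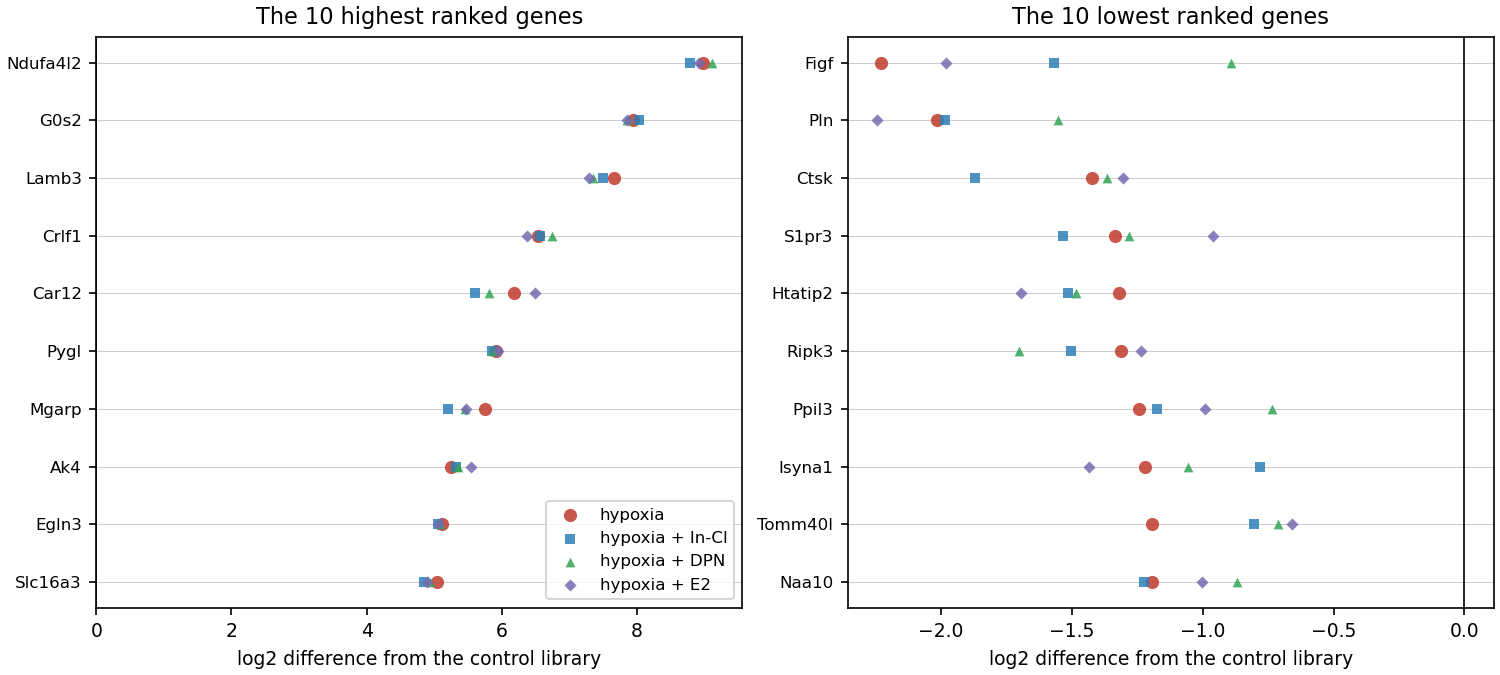
Log2 difference from the control library (horizontal axes) in each of the 4 hypoxic libraries (symbols) for the 10 highest (left) and 10 lowest (right) ranked genes; the 2 panels have different scales, and the vertical line at 0 on the right is the control. All 4 symbols lie on 1 side of the control for each gene by the way the genes were chosen; for Figf they run from -2.23 without a compound to -0.89 with DPN.

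Sugar metabolism reached beyond glycolysis into glycogen. In the glycolysis list 19 of 20 genes were at least 1.5-fold higher, all 20 lay above the control in each hypoxic library, and the median was 2.37. Slc16a3, the lactate exporter, was the highest at 5.05; its gene overlaps Csnk1d (0.14). In the glycogen list 5 of 16 genes passed 2-fold upward and 0 downward. They cover both building and breakdown: Gys1, glycogen synthase (2.36), Gbe1, the branching enzyme (2.25), Ppp1r3c, a phosphatase subunit that favours synthesis (2.24), Pgm1, which interconverts glucose phosphates (1.73), and Pygl, a glycogen phosphorylase.

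Pygl was the most different of these, with 37.8 in the control, 2356.4 under hypoxia, 2257.3 after In-Cl, 2273 after DPN and 2407.6 after E2 (60.72-fold, interval 5.54 to 6.42 in log2). The hypoxic libraries again sat close together. The other members lay on both sides of the control, from -0.49 for Pygb, the brain phosphorylase, to 0.35 for Gsk3b, a kinase of glycogen synthase, with Ugp2, which makes the sugar donor for synthesis, at 0.17. The median of 0.13 became -0.02 on the same-sum scaling.

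Genes known as brakes on growth were among the highest outside metabolism. Ddit4 (REDD1), an inhibitor of the growth kinase mTORC1, had 373.8 in the control, 3450.5 under hypoxia, 3140 after In-Cl, 3177.2 after DPN and 3275.6 after E2 (9.21-fold, log2 3.20, interval 3.06 to 3.35). Ndrg2 was higher by 4.37 and Ndrg1 by 3.17, both of a family linked to differentiation and stress. Bhlhe40, a transcriptional repressor, was higher by 2.69, Mxi1, an antagonist of Myc, by 2.60, and Errfi1, a feedback inhibitor of the EGF receptor, by 1.29. In all, 10 of 23 kept members passed 1.5-fold upward, 0 downward, and the list's median was 0.38. The sestrins, a second route to mTORC1, did not pass: Sesn1 stood at 0.17, Sesn2 at 0.25 and Sesn3 at 0.03.

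Cell cycle regulators of the cyclin and inhibitor kind differed in both directions. Ccng2, an atypical cyclin tied to arrest, had 400.2 in the control, 1583.7 under hypoxia, 1833.3 after In-Cl, 1865.3 after DPN and 1835.8 after E2 (log2 1.98), and Cdkn1b (p27) was higher by 0.60. Cdkn1a (p21), another inhibitor of cyclin-dependent kinases, was lower, with 5731.7 in the control, 2960.3 under hypoxia, 2710.7 after In-Cl, 2859.4 after DPN and 2794.7 after E2 (1.94-fold lower, interval -1.02 to -0.89). The 2 inhibitors thus stood on opposite sides of the control in each hypoxic library. Cdk4 was at -0.43 and Ccnd1, its cyclin, at 0.28.

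Secreted and vasoactive factors included Ptgs2, cyclooxygenase-2, which the series title names. It had 110.8 in the control, 258 under hypoxia, 218 after In-Cl, 221.6 after DPN and 306 after E2. The difference without a compound was 2.32-fold (log2 1.21, interval 0.91 to 1.53), and all 4 hypoxic libraries lay above the control. Ptges, the prostaglandin E synthase that acts after it, was higher by 2.17. Mif, a cytokine, was higher by 2.38, Vegfa, the main vascular growth factor, by 1.53 and Pgf, placental growth factor, by 0.92.

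Figf (VEGF-D), a factor of the same family that acts on lymphatic vessels, went the other way and was the lowest of all ranked genes. It had 352.9 in the control, 74.6 under hypoxia, 118.3 after In-Cl, 189.5 after DPN and 88.6 after E2 (4.68-fold lower, log2 -2.23, interval -2.62 to -1.88). The hypoxic libraries were spread by more than 2-fold but all below the control. Edn1, endothelin-1, stood at -0.31 and Adm, adrenomedullin, at 0.42. Of the 16 kept genes in this group 6 passed 1.5-fold upward and 1 downward.

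Acid and ion handling held high carbonic anhydrases and a low regulator of a calcium pump. Car9, a carbonic anhydrase on the cell surface, had 12916.1 in the control, 38457.1 under hypoxia, 36992.9 after In-Cl, 35535.2 after DPN and 35956.4 after E2 (2.98-fold, log2 1.57). Car12, a second surface form, rested on 2 reads in the control against 206 under hypoxia (log2 6.19, interval 5.12 to 10.05). Pln, phospholamban, which restrains the calcium pump of the sarcoplasmic reticulum, had 350.4 in the control, 85.9 under hypoxia, 87.7 after In-Cl, 118.9 after DPN and 73.2 after E2 (4.05-fold lower, log2 -2.02, interval -2.39 to -1.69). It was the second lowest ranked gene and the pump itself, Atp2a2, stood at -0.38. Of 22 kept genes 5 passed 1.5-fold upward and 2 downward. Among the bicarbonate cotransporters Slc4a4 was higher by 0.84, and Slc4a7 was at -0.92 without a compound, but the 3 pretreated libraries came as close to the control as -0.14. The list's median was 0.01, or -0.14 on the same-sum scaling.

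Among metal and redox genes a few stress markers were high and most antioxidant enzymes slightly low. Mt1a and Mt2A, metallothioneins that bind zinc and copper, were higher by 2.22 and 1.53, and Hmox1, heme oxygenase-1, by 1.23. Mt1a had 41.4 in the control and 196.1 under hypoxia, so it rested on few reads. Against these, 24 of 34 members lay below 0, with Ephx1, an epoxide hydrolase, at -1.11, Srxn1, which repairs peroxiredoxins, at -0.70, Prdx3, the mitochondrial peroxiredoxin, at -0.66 and Txnrd1, thioredoxin reductase, at -0.56. The list's median was -0.14, beside a median of -0.04 and 55.8% below 0 for all kept genes. In iron handling, Tfrc, the transferrin receptor, was at 0.43 and Nfs1, which supplies sulfur for iron-sulfur clusters, at -0.60, with 1 of 19 genes past 1.5-fold each way. These counts lie near the shares of all kept genes, 5.64% higher and 4.47% lower.

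Lipid genes held a few high members among many slightly below the control. G0s2, an inhibitor of fat breakdown, was listed at 0 in the control and at 244.6 under hypoxia, 260.6 after In-Cl, 232 after DPN and 231.6 after E2, at least 97.5-fold higher against the floor of 3 reads, with a counting interval that starts lower, at a log2 of 6.30. In the file it stands beside Lamb3, a laminin chain that was also at 0 in the control and at 201.1 under hypoxia (at least 80.2-fold higher, with an interval from a log2 of 6.01). Whether reads of such neighbours can be told apart was not tested, since the sources used here do not say whether counting used the strand. Vldlr, a lipoprotein receptor, was higher by 1.01. Cpt1a, which admits fatty acids to mitochondria, was at -0.63 and Acadm, an acyl-CoA dehydrogenase, at -0.62, while Acaa2, also of fatty acid oxidation, was at 0.56. Of 29 genes of storage, activation and oxidation 21 were below 0 (median -0.24). In sterol and fatty acid synthesis 24 of 35 were below 0 (median -0.15), with Scd1, a desaturase, at -0.74, while Insig2, a brake on sterol synthesis, was higher by 1.22. Of all kept genes 55.8% were below 0 (median -0.04), so the downward lean of both lists was modest.

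**Figure D3:**
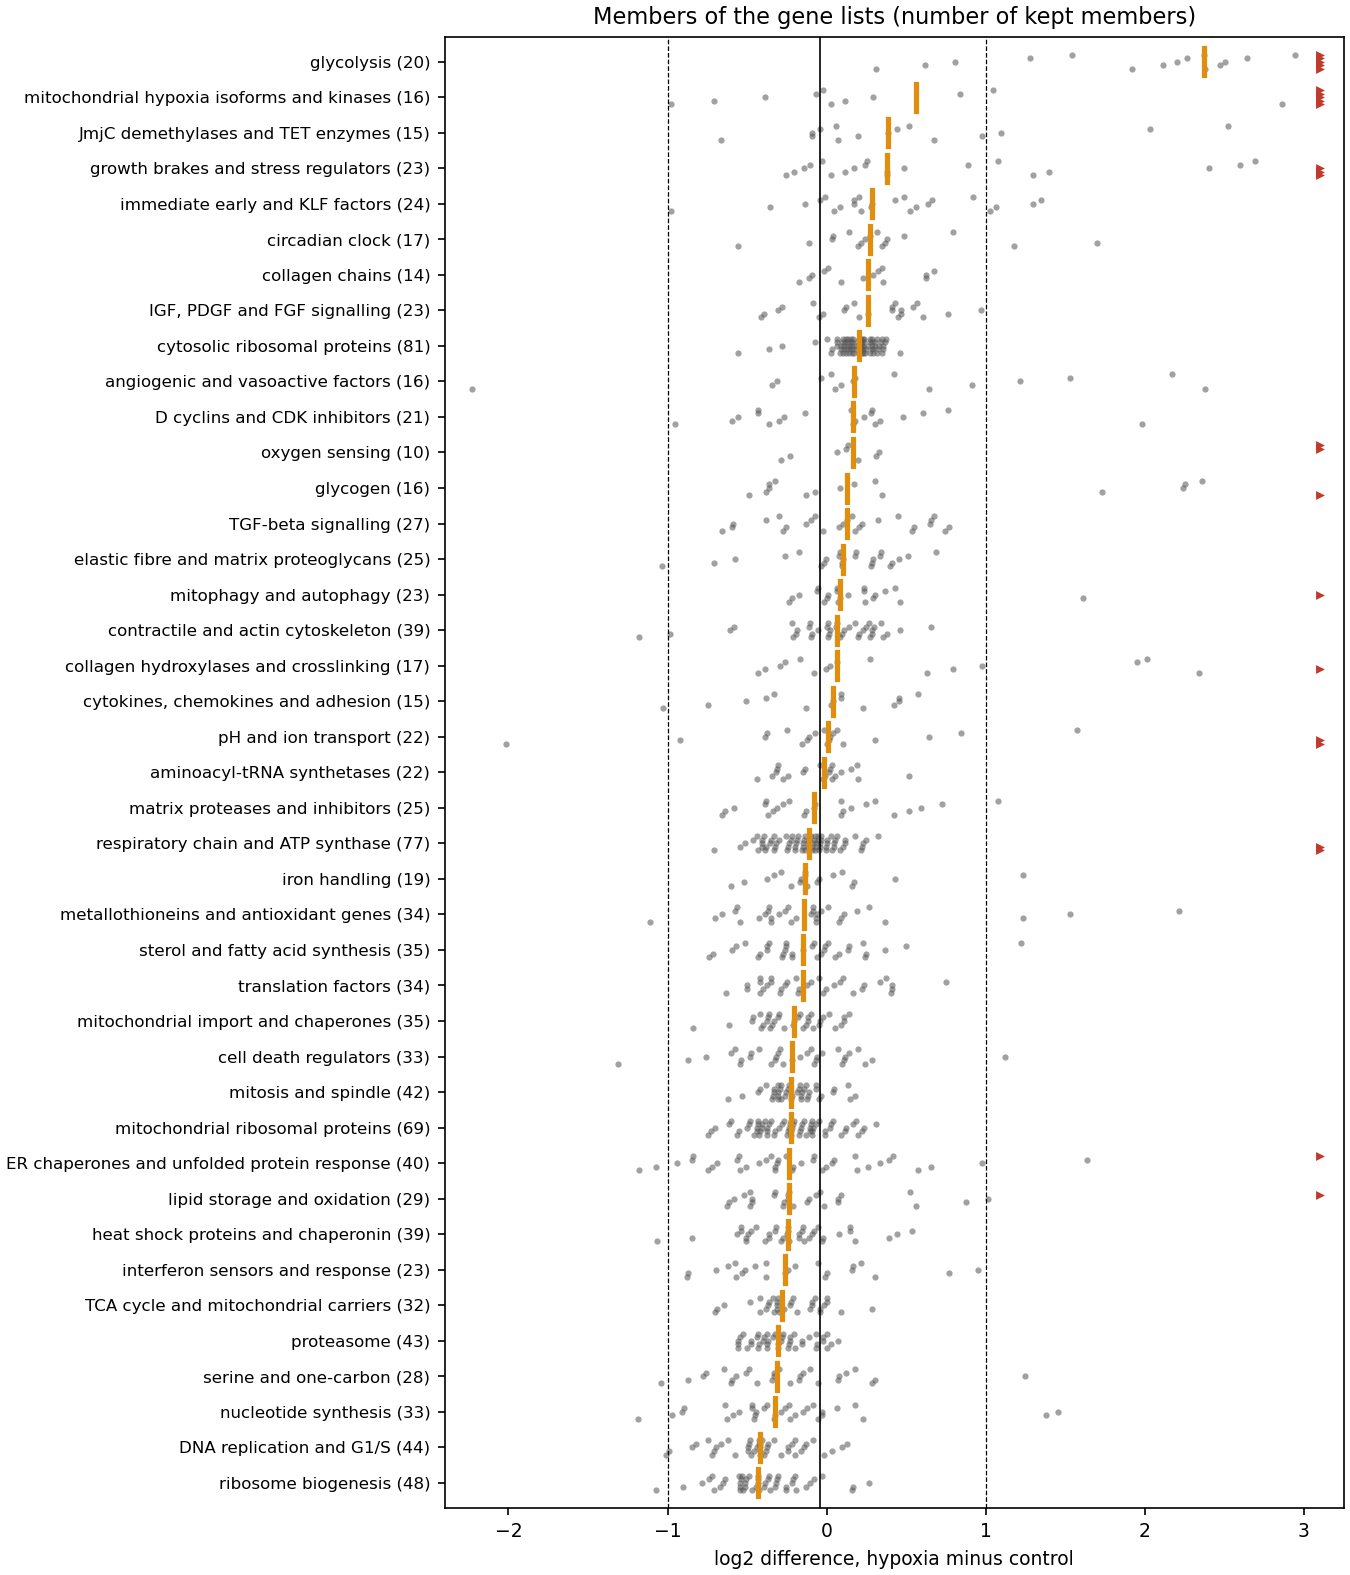
Log2 difference, hypoxia minus control, of each kept gene in the gene lists other than the cell type markers (grey points), with the median of the list (orange bar) and its number of kept genes in parentheses; red triangles stand for genes beyond the right edge, dashed lines mark 2-fold and the solid line the median of all kept genes (-0.04). Glycolysis has the highest median (2.37), and ribosome biogenesis (-0.43) and DNA replication (-0.42) the lowest.

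The genes that were lower formed a different picture, with many modest differences in step. Past 1.5-fold lower were 394 genes, but only 36 of them reached 2-fold. The 30 lowest ranked genes did not belong to 1 function. After Figf and Pln came Ctsk, a collagen-degrading cathepsin (-1.42), S1pr3, a sphingosine phosphate receptor of vessels (-1.34), Htatip2 (-1.32) and Ripk3, a kinase of necroptosis (-1.31). Below the control by more than 2-fold were also the peptidyl-prolyl isomerase Ppil3 (-1.24), the inositol synthase Isyna1 (-1.22), the acetyltransferase subunit Naa10 (-1.19), the pyrophosphatase Ppa1 (-1.18), the growth factor Ptn (-1.15) and the adenylate cyclase Adcy4 (-1.10).

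Some of these varied among the hypoxic libraries. Ppil3 had 933.5 in the control, 393.5 under hypoxia, 413.4 after In-Cl, 560.8 after DPN and 469.5 after E2. The hypoxia library was the lowest of the 4. Only 12 of the 36 genes past 2-fold lower did so in all 4, against 151 of the 200 past 2-fold higher. Both sets of genes were ranked on the hypoxia library, which can by itself place the other 3 libraries closer to the control.

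Several chaperones of the endoplasmic reticulum stood below the control. Calr, calreticulin, which folds glycoproteins and stores calcium, had 38350.6 in the control, 18228.7 under hypoxia, 18624.6 after In-Cl, 20128.2 after DPN and 16611.7 after E2 (2.10-fold lower, log2 -1.07, interval -1.10 to -1.05). Hspa5 (BiP), the main chaperone of this compartment and sensor partner of the unfolded protein response, had 23411.6, 13958.9, 14321.5, 14371.3 and 13949.2 in the same order (log2 -0.75, interval -0.78 to -0.72). All 4 hypoxic libraries were below the control in both genes, with little spread among them. Also lower were Sdf2l1 (-1.18), a cofactor of BiP, Dnajb11 (-0.94), a cochaperone, Hyou1 (-0.85), a nucleotide exchange factor, Creld2 (-0.84), Hsp90b1 (-0.72), the chaperone GRP94, and Pdia4 (-0.69), a disulfide isomerase. These are the 8 of 40 kept members past 1.5-fold lower.

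Another arm of the same list was higher. Ero1a, the oxidase that drives disulfide bonds with oxygen as acceptor, had 796.9 in the control, 9311.8 under hypoxia, 9260.3 after In-Cl, 9094.9 after DPN and 11353.7 after E2 (11.67-fold, log2 3.54). Trib3, a pseudokinase of the stress response, was higher by 1.64, P4hb, also a disulfide isomerase, by 0.98 and Ddit3 (CHOP), a stress transcription factor, by 0.65. These 4 genes and the 8 chaperones above stood on opposite sides of the control. The list's median was -0.24, with 27 of 40 members below 0.

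Some of the lower chaperones share a promoter element that few genes hold. The ER stress element (CCAAT and CCACG with 9 free letters between them) was searched on both strands in the same RefSeq windows; 0.08% of all promoters and 0.22% of kept genes (15 of 6834) held it, beside 25.81% of the kept members of the list (8 of 31 with a promoter: Calr, Canx, Creld2, Dnajc3, Ero1b, Hsp90b1, Hspa5 and Xbp1). It is shown for the 4 holders past 1.5-fold lower, with the element in capitals, in the strand of the gene; where capitals end in ATTGG the element reads on the other strand.
Calr: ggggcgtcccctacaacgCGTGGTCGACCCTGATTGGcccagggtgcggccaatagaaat
Hspa5: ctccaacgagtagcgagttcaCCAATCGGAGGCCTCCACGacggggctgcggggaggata
Creld2: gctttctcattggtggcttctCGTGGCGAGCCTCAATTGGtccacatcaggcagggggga
Hsp90b1: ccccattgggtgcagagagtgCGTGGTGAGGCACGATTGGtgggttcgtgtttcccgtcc
In GRCr8 they lie at chr19:40213117-40213176 on the plus strand (Calr), chr3:38452952-38453011 on the plus strand (Hspa5), chr7:121789218-121789277 on the plus strand (Creld2) and chr7:23012327-23012386 on the minus strand (Hsp90b1). The element begins 232, 43, 145 and 72 bases before the start. Among all 312 genes at least 1.5-fold lower with a promoter in the table these 4 were the holders (1.28%). ER chaperones are textbook holders of this element, so the match describes the list, and a link to the direction was not tested. The holders Canx, Dnajc3, Ero1b and Xbp1 were not past 1.5-fold lower. Sdf2l1, Dnajb11, Hyou1 and Pdia4 were past it and did not hold the element.

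Cytosolic heat shock proteins and the chaperonin were also mostly below the control. Hsph1 (HSP110), an exchange factor of HSP70, had 4620 in the control, 2209.3 under hypoxia, 2632.9 after In-Cl, 2466.8 after DPN and 2356.4 after E2 (2.09-fold lower, log2 -1.06). Its promoter holds the heat shock element (GAA, TTC and GAA with 2 free letters between neighbours), shown in capitals on the other strand and placed in GRCr8 at chr12:10427308-10427367, plus strand.
Hsph1: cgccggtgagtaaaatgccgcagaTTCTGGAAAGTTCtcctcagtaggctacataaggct
The element occurred in 5 of 32 listed promoters (Cct4, Chordc1, Dnaja1, Hspa8 and Hsph1), in 0.47% of kept genes and in 0.74% of all promoters. Ppid, a cyclophilin of HSP90, was at -0.84, Dnaja1, a cochaperone, at -0.54 and Hspa4 at -0.49. Hspa1b, an inducible HSP70, was at 0.44 and Dnajb1 at 0.39. In all, 32 of 39 members were below 0 (median -0.24), beside 55.8% of all kept genes (median -0.04). Past 1.5-fold lower were 2 of the 39, near the share of all kept genes (4.47%). That count was 2 after median centring, 3 under quantile normalization and 10 on the same-sum scaling.

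The proteasome was lower in nearly all subunits by small amounts. Of 43 kept subunits and assembly factors 40 were below 0 and 39 below the control in each hypoxic library, beside 55.8% and 40% of all kept genes, with a median of -0.31. None passed 1.5-fold as deposited, 1 did under quantile normalization and 8 on the same-sum scaling. The range ran from -0.56 (Psme1, an activator subunit, and Psmb10, an immunoproteasome subunit) to 0.07 (Psmc6). Psme1 had 1632.8 in the control, 1107.2 under hypoxia, 1040.2 after In-Cl, 1030.1 after DPN and 1033.7 after E2.

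Making ribosomes gave the lowest median of the 46 lists as deposited. Of 48 kept genes of ribosome biogenesis 45 were below 0, 42 were below the control in each hypoxic library, 9 passed 1.5-fold lower and 0 higher (median -0.43). The lower ones numbered 9 after median centring, 8 under quantile normalization and 22 on the same-sum scaling. Polr1b, a subunit of RNA polymerase I, had 465.9 in the control, 221.1 under hypoxia, 322.6 after In-Cl, 269.4 after DPN and 255.4 after E2 (2.10-fold lower, log2 -1.07). Bysl, which matures the small subunit, had 835.4, 446.3, 406.3, 446.3 and 383 in that order (log2 -0.90). Both lay below the control throughout, Polr1b with the wider spread. Heatr1 (-0.78), Tcof1 (-0.72), which serves rDNA transcription, and Nop2 (-0.65), an rRNA methyltransferase, were lower too, while Ncl, nucleolin, was at -0.30 and Npm1, nucleophosmin, at -0.03.

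The proteins of the finished ribosome did not follow. Of 81 kept genes in the list of cytosolic ribosomal proteins, 77 were above 0 and 0 passed 1.5-fold either way, and their median was 0.20, against 0.00 under quantile normalization and 0.06 on the same-sum scaling. Only 23 were above the control in each hypoxic library. The 3 lowest members, Rpl22l1 (-0.56), Rps27l (-0.36) and Rps19bp1 (-0.28), are paralogs or partners rather than core subunits. Mitochondrial ribosomal proteins stood apart from them: 57 of 69 were below 0 (median -0.23), with Mrpl42 at -0.74 and Mrpl19 at -0.73. Past 1.5-fold lower were 5 as deposited, 3 after median centring, 3 under quantile normalization and 11 on the same-sum scaling. Translation factors had a median of -0.15, with Eif4ebp1, a repressor of cap-dependent translation, at 0.75 and Eif2b3, an exchange factor subunit, at -0.63. The aminoacyl-tRNA synthetases centred on -0.02, with 0 of 22 past 1.5-fold.

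**Figure D4:**
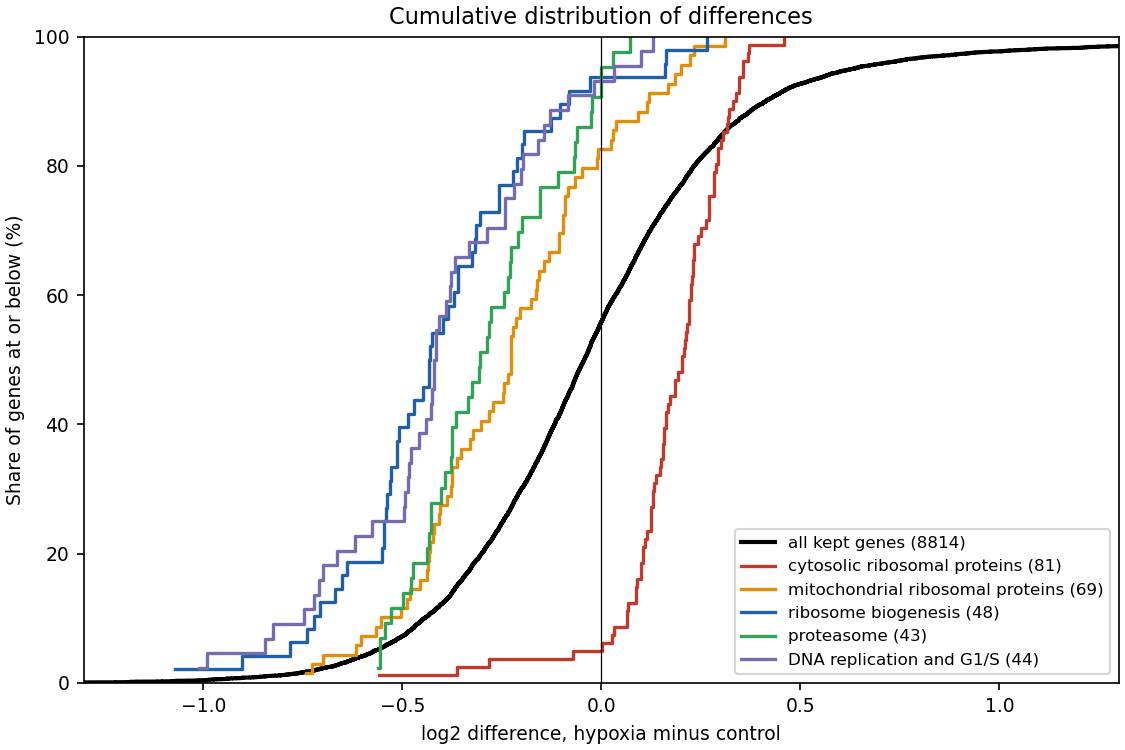
Cumulative share of genes (vertical axis, %) at or below a given log2 difference, hypoxia minus control, for all 8814 kept genes and 5 lists. Ribosome biogenesis and DNA replication lie to the left of all kept genes along most of the range, and cytosolic ribosomal proteins rise steeply just right of 0, between 0 and about 0.5.

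DNA replication stood at nearly the same place. Of 44 kept genes 41 were below 0 and 39 below the control in each hypoxic library (median -0.42). Past 1.5-fold were 10 lower and 0 higher. The lower ones numbered 9 after median centring, 9 under quantile normalization and 17 on the same-sum scaling. Ccne1, cyclin E, which starts replication, had 629.3 in the control, 312 under hypoxia, 304.7 after In-Cl, 358.3 after DPN and 392.4 after E2 (2.01-fold lower, log2 -1.01, interval -1.21 to -0.82). Mcm10, an initiation factor, had 378.5, 190.1, 213.1, 187.8 and 163.2 in that order (log2 -0.99). Pole2 (-0.84), of DNA polymerase epsilon, Prim2 (-0.82), of the primase, and Orc1 (-0.71), of the origin complex, were lower as well. E2f1, the transcription factor of this phase, was at 0.10.

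Genes of mitosis were lower by less. Of 42 kept members 37 were below 0 (median -0.22), beside 55.8% of all kept genes (median -0.04). Only 1 of the 42 passed 1.5-fold lower, Cdc25c, a phosphatase that starts mitosis (-0.62), a share under the 4.47% of all kept genes. The count was 0 after median centring, 1 under quantile normalization and 2 on the same-sum scaling. Mki67, a marker of cycling cells, was at 0.14 and lay on both sides of the control among the hypoxic libraries. Cenpf, a kinetochore protein, was at 0.18.

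Supplies for DNA and RNA were lower in part. In nucleotide synthesis 28 of 33 genes were below 0, 7 passed 1.5-fold lower and 2 higher (median -0.32). The lower ones numbered 6 after median centring, 5 under quantile normalization and 13 on the same-sum scaling. Cad, which starts pyrimidine synthesis, had 1495.1 in the control, 762.2 under hypoxia, 988.8 after In-Cl, 791.9 after DPN and 836.5 after E2 (1.96-fold lower, log2 -0.97). Dctd (-0.91), Nme1 (-0.90), a nucleoside diphosphate kinase, and Tyms (-0.63), thymidylate synthase, were below the control. Dhodh, the mitochondrial enzyme of the pyrimidine route that hands electrons to the respiratory chain, was higher: 194.9 in the control, 534.6 under hypoxia, 485.4 after In-Cl, 487.4 after DPN and 523.9 after E2 (2.73-fold, log2 1.45). Successive enzymes of 1 pathway, Cad and Dhodh, thus stood on opposite sides of the control in each hypoxic library.

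The one-carbon pathway, which supplies methyl groups and purine carbon, was split by compartment in part. Shmt1, the cytosolic serine hydroxymethyltransferase, had 612.5 in the control, 297.4 under hypoxia, 247.7 after In-Cl, 289.6 after DPN and 265.3 after E2 (2.06-fold lower, log2 -1.04). Mthfd1, the cytosolic folate enzyme, was at -0.64. Mthfd1l, a mitochondrial counterpart, had 726.6, 1725.9, 1484.8, 1729.5 and 1780.7 in that order (2.37-fold higher, log2 1.25), and Shmt2, the mitochondrial form, was at 0.30, though its gene overlaps Ndufa4l2. Other mitochondrial members were lower, such as Gcsh, of glycine cleavage (-0.87), and Aldh1l2 (-0.78), so the compartment did not sort all of them. Of 28 genes 7 passed 1.5-fold lower and 1 higher (median -0.31).

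**Figure D5:**
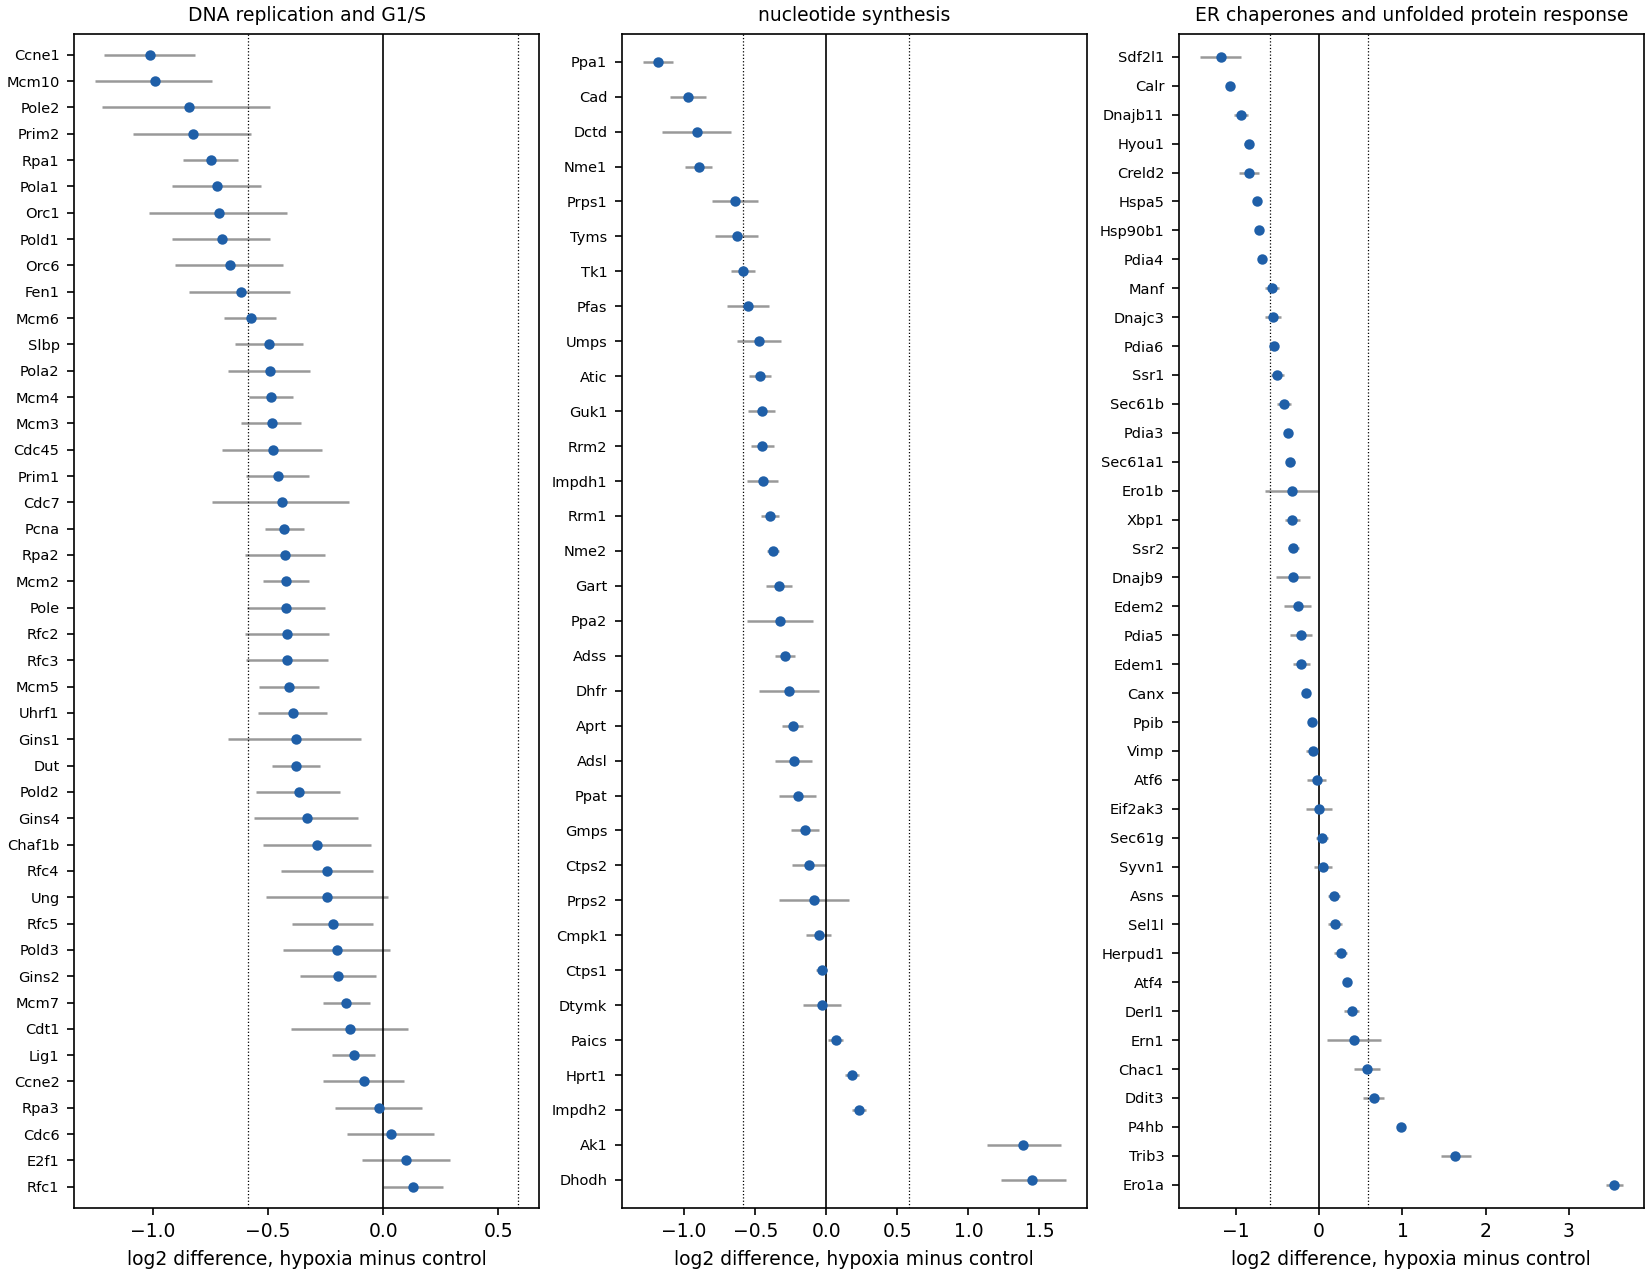
Log2 difference, hypoxia minus control, of each kept gene in 3 lists (points) with its 95% counting interval (bars); dotted lines mark 1.5-fold each way and the solid line no difference, and the panels have different scales. Most points lie to the left of 0, while Dhodh and Ak1 in nucleotide synthesis and Ero1a, Trib3, P4hb and Ddit3 in the ER list lie to the right of the upper dotted line.

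Respiration showed small negative differences beside the isoform differences described above. Of 77 kept genes of the respiratory chain and ATP synthase 57 were below 0 (median -0.11), beside 55.8% of all kept genes (median -0.04). Past 1.5-fold lower was 1 gene, Cycs, cytochrome c, at -0.71 (4 genes on the same-sum scaling). Cox4i2 and Ndufa4l2 were the 2 genes past 1.5-fold higher. In the TCA cycle and mitochondrial carriers 28 of 32 were below 0 (median -0.28), with Dlat, of pyruvate dehydrogenase, at -0.70, Slc25a5, an ADP/ATP carrier, at -0.69 and Ogdh, of 2-oxoglutarate dehydrogenase, at -0.65. Import factors and mitochondrial chaperones had 29 of 35 below 0 (median -0.21), with Timm10 at -0.84 and Hspd1 (HSP60) at -0.62. Hspd1 shares its locus with Hspe1, which was at -0.42.

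Death and antigen genes were lower in a few steps. Ripk3 had 634.2 in the control, 255.2 under hypoxia, 222.9 after In-Cl, 194.4 after DPN and 268.5 after E2 (2.48-fold lower, interval -1.53 to -1.10). It stands in the file beside Adcy4, which was lower to a like degree (-1.10), and Nfatc4, which was not (0.18). Tnfrsf10b, a death receptor, was at -0.87, while Bmf, which promotes apoptosis, was higher by 1.12. Of 33 kept death regulators 24 were below 0 (median -0.22), beside 55.8% of all kept genes (median -0.04).

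Interferon response genes had a median of -0.26, with 16 of 23 below 0, beside -0.04 and 55.8% for all kept genes. Tapbp (-0.88) and Tap2 (-0.62), which load peptides on class I molecules, were lower, while 2 class I genes, RT1-A1 (0.77) and RT1-A2 (0.95), were higher. These class I genes are near-identical copies, so the division of reads between them is uncertain.

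The contractile programme had a median near 0. Its 39 kept genes had a median of 0.07, which turned to -0.06 after quantile normalization and -0.08 on the same-sum scaling. Past 1.5-fold were 3 genes lower (Tuba4a, Smtn and Itga8) and 1 higher (Vim). Smtn, smoothelin, a marker of contractile smooth muscle, had 4373.8 in the control, 2206.2 under hypoxia, 1920.5 after In-Cl, 1970.4 after DPN and 1977.2 after E2 (1.98-fold lower, log2 -0.99, interval -1.06 to -0.91). Itga8, an integrin chain, was at -0.61. Acta2, smooth muscle actin, was at 0.35 but lay on both sides of the control among the hypoxic libraries (down to -0.14), and Myh11, smooth muscle myosin, at 0.14. Tuba4a, a tubulin, was at -1.18, beside Glb1l in the file (-0.96). Vim, vimentin, was at 0.66 without a compound, but its lowest difference among the 4 hypoxic libraries was 0.25.

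In the matrix outside collagen, Lum, lumican, had 1214.2 in the control, 590.8 under hypoxia, 552.3 after In-Cl, 623.3 after DPN and 610.4 after E2 (2.05-fold lower, log2 -1.04). Vcan, versican, was at -0.71, Omd, osteomodulin, at 0.69 and Fn1, fibronectin, at 0.51. Timp3, an inhibitor of matrix proteases, was higher at 2454.8, 5172.8, 6207.4, 6029.2 and 5975.1 in the usual order (2.11-fold, log2 1.07), and Timp1, its relative, was at -0.58. The 2 inhibitors stood on opposite sides of the control in each hypoxic library. The list of 25 elastic fibre and proteoglycan genes had a median of 0.10 that became -0.04 on the same-sum scaling.

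Of the signalling lists, that of insulin-like, platelet-derived and fibroblast growth factors leaned upward. Pdgfb (0.97) and Pdgfa (0.77), growth factors of smooth muscle, and Igfbp3 (0.60), which binds insulin-like growth factors, passed 1.5-fold, as 3 of 23 genes in that list (median 0.26). In TGF-beta signalling, 5 of 27 passed upward (2 on the same-sum scaling) and 3 downward (1 after median centring or quantile normalization). Smad7, an inhibitor of the pathway (0.77), and Smad3, one of its effectors (0.75), were higher, while Id3, a target (-0.66), and the ligand Tgfb1 (-0.59) were lower. The median of 0.13 was -0.02 on the same-sum scaling. Among cytokines and adhesion genes Cd55, a complement regulator, was at -1.03, Tnfaip6, an inducible matrix protein, at -0.74, Il6 at 0.45 and Icam1 at 0.46, with a median of 0.04 that turned negative under 2 of the 3 scalings.

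Immediate early and KLF factors had 7 of 24 kept members past 1.5-fold higher (median 0.28), led by Maff (1.35), Ier3 (1.29), Klf2 (1.06) and Klf5 (1.03). Egr1 was the 1 member past 1.5-fold lower, with 174 in the control, 88 under hypoxia, 195.4 after In-Cl, 176.8 after DPN and 107 after E2. Its difference (-0.98) belonged to the hypoxia and E2 libraries, and the other pretreated libraries were slightly above the control. Clock genes were also above 0 in 15 of 17 cases (median 0.27), beside 44.1% of all kept genes (median -0.04). On the same-sum scaling 5 of the 17 lay below 0, 1 of them past 1.5-fold lower, and the median was 0.13. As deposited, Ciart, a clock repressor, was at 1.70, Dbp, a clock output factor, at 1.18, and Nr1d1 (REV-ERB alpha) at 0.80. Clock itself was at 0.04 and Per1 at 0.03. The sources used here do not give the time of day at harvest, and its part was not tested.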

How the data were processed

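Each library has its own deposited table of log2 values, made with TopHat, edgeR and the build rn6, per the submitters' processing notes; the sources used here do not give the counting program, annotation, strand use or versions. Trizol RNA went into stranded SMARTer libraries, per the labels' protocols. Linear values (2 to the power of the deposited log2 value, minus a pseudocount of 1) come in steps worth 0.836 in the control and 0.987 to 1.101 in the others; 69.3% of low control values and 96.8% to 100% elsewhere lay within 0.2 read of whole steps, so control reads are approximate. Differences are of deposited values, and folds are on the log2(value + 1) scale. Intervals are exact Clopper-Pearson (95%), treat reads as independent molecules. Of the genes past 1.5-fold, 114 higher and 31 lower ones had their lower library under an adjusted read count of 100. Named genes were the 20 highest and 30 lowest for which all 4 hypoxic libraries lay on 1 side of the control (no uncharacterised loci, small RNAs or ribosomal RNAs), the 3 highest and 3 lowest of each list, and Ptgs2; further members were named after their values were seen. Members and lists were chosen with earlier results of these data known. Alternatives were median centring, quantile normalization, same-sum scaling, other filters, a pseudocount of 16, a floor of 3 reads and summed rows. Computations used Python 3.11.15, numpy 2.4.6, pandas 2.3.3 and scipy 1.17.1. Some listed genes were not analysed here or are not reported here.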

Additional observations from a re-analysis of the deposited data

How the results depend on the processing

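No paired analysis was possible because each condition is 1 library, and no library could be left out. The counts of genes depended on the filter. With a minimum mean of 1000, 74 genes were at least 2-fold higher and 5 lower, and 162 and 73 passed 1.5-fold; with no filter the counts were 1180 and 435 at 2-fold and 1883 and 1304 at 1.5-fold, where low reads weigh most. Scaling to the same sum gave 83 genes at least 2-fold lower and 893 at least 1.5-fold lower. The median of the endothelial markers, which rests on 1 kept gene (Tek) at 0.60, was -0.29 when the filter used the mean of control and hypoxia alone, which adds Flt1. Of 160 named genes past 1.5-fold, 9 fell under it after median centring, 9 after quantile normalization, 12 on the same-sum scaling and 5 with the larger pseudocount, and 0 changed sign under any alternative. These genes differ by at least 0.585 in log2, and same-sum scaling moved the median of all kept genes by -0.14. A change of sign could thus hardly occur, and its absence is no support. The medians of 11 of the 46 lists changed sign under a scaling. Of the lists with a negative median, only the aminoacyl-tRNA synthetases (-0.02, or 0.03 after median centring) were among them. Same-sum scaling moved values down, so it could not turn a negative median positive.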
